A study of Mus musculus with 6 samples.

Results

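The metalloproteases described here are the matrix metalloproteinases (MMPs), the ADAMs and the ADAMTS enzymes, together with the tissue inhibitors of metalloproteinases (TIMPs), in RET cells, a mouse melanoma line. A gene was included when a row of the array was annotated with exactly 1 symbol and that symbol was Mmp, Adam, Adamts or Timp followed by a number and at most 1 letter. This gave 77 of the 22180 named genes measured, with 22 Mmp, 33 Adam, 18 Adamts and 4 Timp genes, among them Adam34l, whose letter belongs to a gene name of its own. They were read by 83 rows of the array, and for the 6 genes with several rows the brightest was used. Cells of 2 groups were compared, both of the strain labelled C57BL\6 and both carrying a short hairpin RNA (shRNA). The control shRNA group, 3 cultures whose titles also carry the word GFP, held a hairpin without a target, and the Angpt2 shRNA-1 group, 3 cultures called silenced cells below, held 1 hairpin against Angpt2, the gene of the secreted vessel factor angiopoietin-2. All 6 were grown for 24 h in the same medium, described in the labels as biological replicates, and measured on 1 Affymetrix Mouse Gene 2.0 ST array each. With 1 hairpin and no rescue, an effect of losing Angpt2 cannot be told apart from other differences between the 2 sets of cells.

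MMPs, ADAMs and ADAMTS enzymes cut proteins with a zinc ion in the active site and are made as inactive precursors. Secreted and membrane-bound MMPs degrade collagens and other matrix proteins, ADAMs release the outer parts of membrane proteins such as growth factors, cytokines, Notch and cadherins, and ADAMTS enzymes process proteoglycans, procollagens and fibrillins. TIMPs bind the active sites, TIMP-3 also those of several ADAM and ADAMTS enzymes. In melanoma this system is known for its part in invasion, and Mmp14 for activating pro-MMP-2 at the cell surface together with Timp2.

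In these cells a minority of the Mmp and Adam genes gave signal above the array median on all 6 arrays. So did 10 of 18 Adamts genes and 3 of the 4 Timp genes. Not all of this signal was high. Mmp2, Mmp11, Mmp17, Mmp24, Adam33, Adamts6, Adamts9, Adamts13 and Adamts17 had means of 84.6 to 101. The brighter markers of absent cell types C1qa (86.2) and Vwf (87.1) lay at the lower end of that range. The membrane protease gene Mmp14, the sheddase genes Adam9, Adam10, Adam15 and Adam17, Adamts1 and the inhibitor genes Timp2 and Timp3 gave intensities of 377 to 2644, against array medians of 74.5 to 76.2. Of the 77 members 26 lay above the median of their array on all 6 arrays, 14 on some and 37 on none. That share, 33.8%, stands beside 51.2% of all named genes. No member passed the test between the groups, and the largest difference of a member was 0.33 on the log2 scale.

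**Figure D1:**
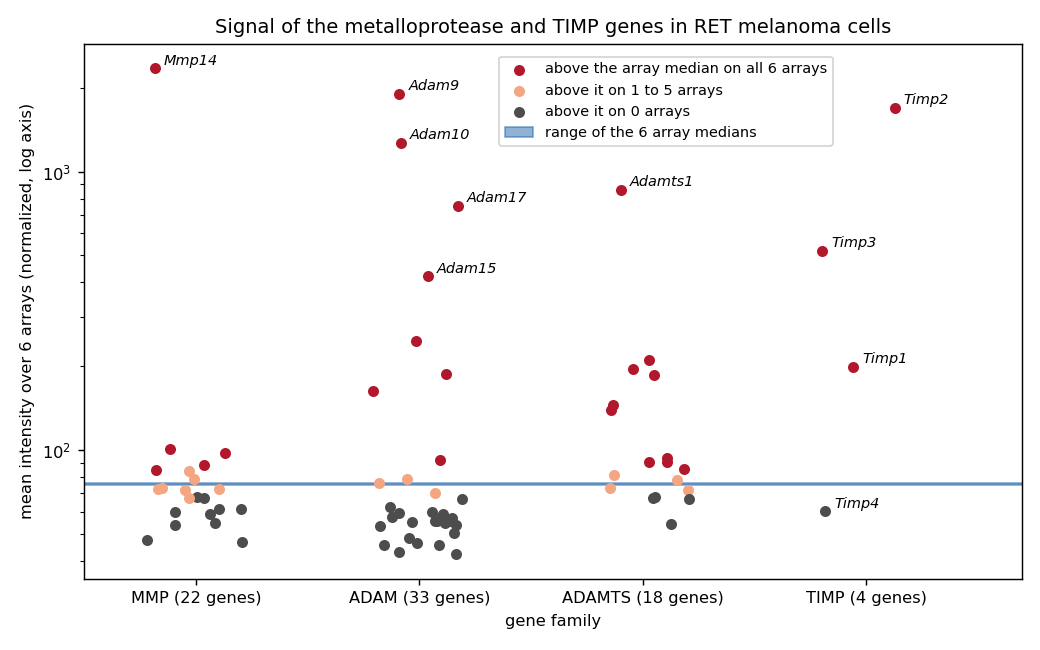
Mean intensity over the 6 arrays (log axis) of each of the 77 genes, by family; colours give the number of arrays on which a gene lay above the array median, and the band spans the 6 array medians. Mmp14 at 2353 is the only Mmp gene far above the band, the other families have several such genes, and 37 genes, among them Timp4, lie below it on every array.

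The promoters are shown first, because the sequence features of dim and bright members were unlike. Promoter windows of 300 bases, from 250 before to 50 after the start, were taken from RefSeq (GRCm38.p6) for the 47 members that matched by gene ID. The first 4 come from the row of Mmp genes on mouse chromosome 9, in which 10 members (Mmp13, Mmp12, Mmp1b, Mmp3, Mmp1a, Mmp10, Mmp8, Mmp27, Mmp20 and Mmp7) follow each other with 0 other coding genes in between, and which held no member above the median on all arrays. The other 3 belong to members with high signal. Capitals mark the letters of an AP-1 site (TGAGTCA or TGACTCA, the same site read on either strand), a TATA box (TATAAA or TTTATA) and a GC box (GGGCGG or CCGCCC). No match overlapped a different motif in any member's window. All 7 are printed 5′ to 3′ and lie on the + strand, Mmp3 at chr9:7445572-7445871, Mmp13 at chr9:7272264-7272563, Mmp1a at chr9:7463891-7464190, Mmp10 at chr9:7502092-7502391, Mmp14 at chr14:54431348-54431647, Adam10 at chr9:70678732-70679031 and Timp3 at chr10:86300162-86300461.
Mmp3: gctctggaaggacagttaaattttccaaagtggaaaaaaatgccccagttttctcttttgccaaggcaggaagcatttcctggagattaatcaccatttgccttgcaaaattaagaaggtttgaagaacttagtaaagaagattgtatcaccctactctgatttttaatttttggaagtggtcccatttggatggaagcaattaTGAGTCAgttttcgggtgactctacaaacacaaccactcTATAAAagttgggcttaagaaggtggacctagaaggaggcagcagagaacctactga
Mmp13: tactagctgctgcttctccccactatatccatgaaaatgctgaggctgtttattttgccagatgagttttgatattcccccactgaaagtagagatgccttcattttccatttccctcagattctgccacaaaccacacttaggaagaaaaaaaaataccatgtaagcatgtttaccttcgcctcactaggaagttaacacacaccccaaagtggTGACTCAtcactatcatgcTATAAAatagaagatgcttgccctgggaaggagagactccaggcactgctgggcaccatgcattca
Mmp1a: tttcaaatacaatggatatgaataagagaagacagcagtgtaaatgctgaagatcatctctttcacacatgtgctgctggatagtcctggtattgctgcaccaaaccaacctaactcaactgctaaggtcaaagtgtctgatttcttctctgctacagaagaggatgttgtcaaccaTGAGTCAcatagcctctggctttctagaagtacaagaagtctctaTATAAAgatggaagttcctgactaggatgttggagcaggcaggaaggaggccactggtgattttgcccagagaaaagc
Mmp10: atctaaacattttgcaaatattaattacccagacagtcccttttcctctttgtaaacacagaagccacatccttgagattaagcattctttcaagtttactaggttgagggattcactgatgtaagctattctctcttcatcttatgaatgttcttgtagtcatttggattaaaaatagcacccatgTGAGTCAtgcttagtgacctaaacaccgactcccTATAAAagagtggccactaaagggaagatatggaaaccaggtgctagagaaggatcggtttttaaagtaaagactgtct
Mmp14: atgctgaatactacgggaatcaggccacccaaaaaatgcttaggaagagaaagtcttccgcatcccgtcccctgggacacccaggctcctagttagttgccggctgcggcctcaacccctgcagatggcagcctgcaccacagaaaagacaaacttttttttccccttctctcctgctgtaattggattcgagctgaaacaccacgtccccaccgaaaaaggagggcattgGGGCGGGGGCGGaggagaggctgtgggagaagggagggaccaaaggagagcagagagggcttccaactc
Adam10: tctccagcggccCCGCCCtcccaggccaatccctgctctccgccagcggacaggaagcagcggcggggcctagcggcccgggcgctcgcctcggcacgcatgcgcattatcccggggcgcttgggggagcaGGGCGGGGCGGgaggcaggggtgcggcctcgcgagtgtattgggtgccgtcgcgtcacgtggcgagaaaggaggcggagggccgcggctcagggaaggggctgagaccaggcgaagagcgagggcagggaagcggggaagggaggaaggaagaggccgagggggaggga
Timp3: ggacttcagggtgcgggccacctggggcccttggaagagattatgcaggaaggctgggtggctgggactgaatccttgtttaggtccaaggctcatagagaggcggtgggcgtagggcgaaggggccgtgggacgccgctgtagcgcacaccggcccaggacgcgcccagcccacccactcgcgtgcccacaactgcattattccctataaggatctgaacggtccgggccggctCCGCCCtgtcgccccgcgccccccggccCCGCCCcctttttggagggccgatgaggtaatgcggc

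The windows of the members with low signal were poor in CpG and often held AP-1 and TATA letters. AP-1 is the dimer of Fos and Jun proteins, a classical inducer of collagenase and stromelysin genes. In the chromosome 9 row 7 of the 10 genes (70.0%) had AP-1 letters in a window, against 5.95% of the 27025 genes in the table. The match began 35 bases before the start in Mmp13, 46 in Mmp3, 63 in Mmp10 and in Mmp7, 73 in Mmp1a, 93 in Mmp1b and 44 in Mmp12. Mmp8, Mmp20 and Mmp27 had none. These neighbours resemble each other in sequence, so they are not independent cases. Outside the row, AP-1 letters were in windows of Adam19, Adam1b and Adam29.

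By level, the median ratio of observed over expected CpG was 0.70 in the 20 windows (18 genes) of members above the array median on all 6 arrays and 0.09 in the 24 windows (22 genes) of members above it on none, beside 0.38 in all 32851 windows. GC boxes, the sites of Sp1, were in 15 of the 20 and 2 of the 24 (8.33%), beside 35.7% of all windows. TATA letters were in 1 of the 20 and 12 of the 24, beside 13.6% of all. They were counted anywhere in a window. In the 24 they began from -219 (Adam29) to 36 (Adam34l) relative to the start, so the letters alone do not mark a TATA box. AP-1 letters were in 1 of the 20 and 8 of the 24 (33.3%), beside 5.20% of all. Without the chromosome 9 row, the windows of members above the median on 0 arrays still had a median CpG ratio of 0.10, with AP-1 letters in 2 of 13, TATA letters in 4 (30.8%) and GC boxes in 2 (15.4%). There were exceptions in both directions. Adamts3, dim on all arrays, had a ratio of 0.91, and Adamts13, above the median on all, had 0.09. These are descriptions of windows grouped by measured signal, without a test, and a match is not evidence that a factor binds.

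**Figure D2:**
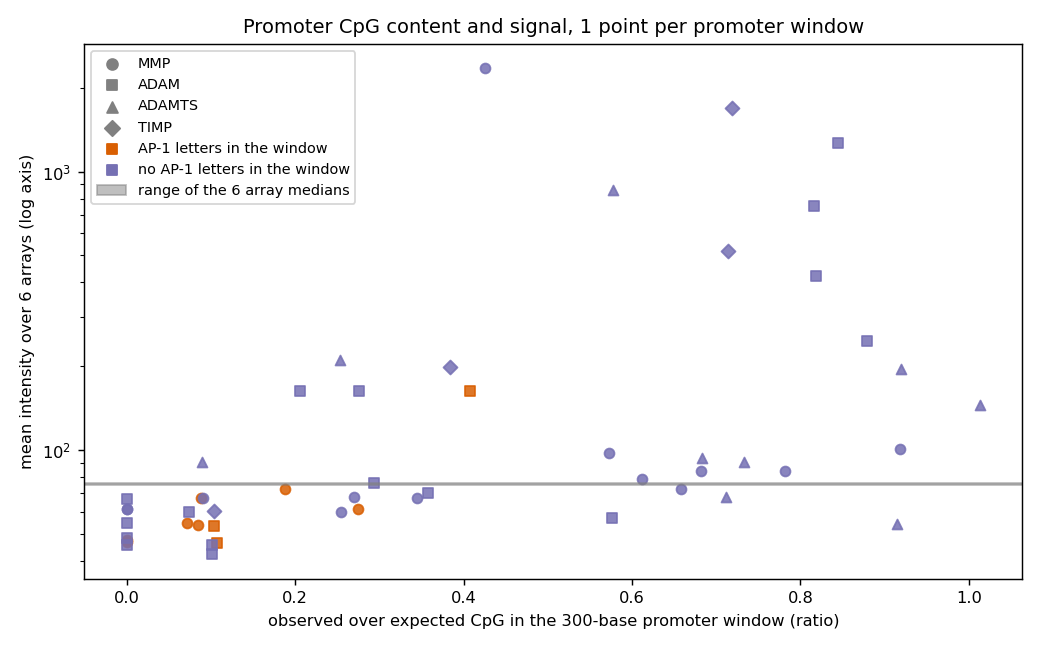
Ratio of observed over expected CpG in each 300-base promoter window (x axis) against the gene's mean intensity over the 6 arrays (y axis, log), 1 point per window and 52 windows of 47 genes; shapes give the family and orange marks AP-1 letters. Windows with AP-1 letters lie below a ratio of 0.41 and, but for Adam19, at or below the band of array medians.

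Array intensity is not scaled to gene length and depends on the probes, so no order of abundance among genes is read from it here, and the deposited table has no detection calls. Markers of cells that should not be present give a yardstick. The 21 measured endothelial, macrophage and keratinocyte markers had a median intensity of 70.4, with 80% of them between 57.7 and 86.2, and only the macrophage marker Cd68 (147), also a general lysosomal gene, was above the array median on all arrays. Fibroblast markers, not counted among these 21, reached higher, with 5 of 8 above the array median on all arrays and means of 115 for Col1a2 and 176 for Postn. The 37 members that were above it on none had mean intensities of 42.1 to 67.7 and had no signal that sets them apart from background. The 8 melanocyte markers, from Sox10 at 1605 to Tyrp1 at 9390, all stood far above. Of these Mitf was lower in all silenced cultures (log2 difference -0.20, SE 0.08; limma adjusted p = 1.00), and of the macrophage markers C1qb was higher in all, at 58.3 to 79.6 over the 6 arrays; whether either bears on the members was not tested. Against the median of named genes, which was at least 87.8 on each array, 17 of the 26 members remained above on all arrays. The other 9 (Mmp2, Mmp11, Mmp17, Mmp24, Adam33, Adamts6, Adamts9, Adamts13 and Adamts17) had means of 84.6 to 101, a range that some absent-type markers reach too. Of the 17, Adam19 (162), Adamts14 (145) and Adamts10 (140) had means below that of the fibroblast marker Postn (176). Just inside the limit was Mmp17, at 74.8 on silenced array 1, whose median was 74.5. Just outside were Mmp23, Adamts8 and Mmp25, each above the median on 5 arrays.

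Among the 22 Mmp genes 5 were above the array median on all arrays (22.7%), and Mmp14 alone was bright. Mmp14, the membrane-type collagenase, read 2194, 2644 and 2251 in controls 1, 2 and 3 and 2592, 2212 and 2228 in silenced cultures 1, 2 and 3. The groups overlapped fully, and the log2 difference (silenced minus control, as throughout) was -0.01 (SE 0.11, 95% interval -0.25 to 0.23). Within replicate numbers 1, 2 and 3 it was 0.24, -0.26 and -0.01. Mmp2, the gelatinase that Mmp14 activates, stayed near the array median, with 85.6, 85.3 and 98.3 in controls and 78.4, 97.1 and 84.3 in silenced cells. The other gelatinase gene, Mmp9, was above the median on 1 array and read 64.6 to 79.5 over the 6. The collagenase genes Mmp1a, Mmp1b, Mmp8 and Mmp13 had 0 of 4 members above the median, with all values between 41.1 and 61.2.

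Mmp11, which encodes stromelysin-3, had the largest difference of the Mmp genes. Its values were 85.2, 121 and 119 in controls and 76.8, 91.5 and 89.7 in silenced cells. Control 1 lay among the silenced values and controls 2 and 3 above them. The log2 difference was -0.32 (SE 0.14, 95% interval -0.65 to 0.00; limma unadjusted p = 0.0511, adjusted p = 1.00). A second row of Mmp11, with a mean of 92.1, gave -0.06. The 2 rows of this gene thus differed in size but not in sign. Without control 1 the brighter row gave -0.49. Mmp24, a membrane-type MMP of neural tissue, was at 0.15 (SE 0.11) and had the largest positive difference of the 77 members. It read 103, 102 and 82.0 in controls against 113, 107 and 98.7 in silenced cells, and control 3 was the lowest of the 6. Without control 3 the difference was 0.05. The stromelysin gene Mmp3 (47.7 to 57.9) and the elastase gene Mmp12 (59.4 to 64.2) were below the array median in all 6 cultures, and the stromelysin gene Mmp10 (66.9 to 77.1) was above it in 2.

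Of the 33 Adam genes 8 were above the median on all arrays, and 7 of these 8 are among the 9 genes grouped here as catalytic ADAMs outside the reproductive tract. Adam9, a sheddase with roles in melanoma adhesion, read 2091, 1998 and 1749 in controls and 2012, 1801 and 1796 in silenced cells. The values of the 2 groups interleave, with a log2 difference of -0.06 (SE 0.10). Adam9 adjoins Adam32, Adam5, Adam3 and Adam18 on chromosome 8 with 0 coding genes between them. Those 4 testis-type neighbours had mean intensities of 50.3 to 59.1, so a bright and a dim member were immediate neighbours.

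Adam10, the main sheddase of Notch and of cadherins, read 1262, 1426 and 1248 in controls and 1186, 1245 and 1247 in silenced cells. In bulk RNA, fewer expressing cells and less RNA per cell cannot be told apart. Every silenced value of Adam10 was below every control value, though by only 1 intensity unit at the closest, and the log2 difference was -0.10 (SE 0.09, 95% interval -0.29 to 0.10; limma adjusted p = 1.00). The exact permutation p was 0.1, the smallest that 3 against 3 cultures can give (two-sided). Without control 2 the difference was -0.03. Adam17, which sheds tumour necrosis factor and ligands of the epidermal growth factor receptor, was the steadiest bright member. It read 749, 778 and 751 in controls and 729, 735 and 786 in silenced cells, with a log2 difference of -0.02 (95% interval -0.20 to 0.16). Adam15, which has an integrin-binding motif in its disintegrin domain, read 377, 466 and 419 against 398, 413 and 450.3, a difference of 0.00 (SE 0.10). Its dimmer row gave -0.20.

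Adam23, a neural ADAM without protease activity that binds integrins and the secreted Lgi proteins, read 259, 268 and 251 in controls and 227, 240.4 and 238 in silenced cells. The groups did not overlap, and the differences within numbers 1, 2 and 3 were -0.19, -0.16 and -0.08. The log2 difference of -0.14 (SE 0.08, 95% interval -0.32 to 0.04) did not pass (limma unadjusted p = 0.110, adjusted p = 1.00; exact permutation p = 0.1). Its relatives Adam11 (72.4 to 89.8) and Adam22 (51.4 to 60.4) were above the array median on 3 arrays and on 0 arrays, in that order. Adam12 and Adam19, also known as meltrins, read 158 to 208 and 141 to 188 over the 6 cultures, with log2 differences of 0.06 (SE 0.12) and 0.11 (SE 0.11).

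The 21 other Adam genes, most of them expressed in testis or epididymis and several with roles in sperm and egg contact, had 0 members above the median on all arrays. Both members at an unadjusted p under 0.05 were among them. Adam29 read 52.5, 47.0 and 50.7 in controls and 39.4, 45.1 and 43.5 in silenced cells, a log2 difference of -0.23 (SE 0.09). In the limma fit across all genes its unadjusted p was 0.0306 and its adjusted p 1.00, and the exact permutation p was 0.1. Adam1a read 79.4, 70.2 and 75.5 against 64.4, 64.3 and 66.4, a difference of -0.20 (SE 0.08). Its unadjusted p in the limma fit was 0.0369, its adjusted p 1.00 and its exact permutation p 0.1. In both genes the silenced arrays lay below the controls. Adam1a lies at intensities that markers of absent cell types have. The mean of Adam29 (46.3) is below the lowest of the endothelial, macrophage and keratinocyte markers (Emcn, 52.2). The signal of neither gene can be separated from background. Also dim were Adam21 (-0.21, SE 0.09), Adam30 (-0.23, SE 0.11) and Adam7, an epididymal gene whose groups did not overlap at a difference of only -0.05 (SE 0.08).

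Of the 18 Adamts genes 10 were above the median on all arrays, 55.6% beside 51.2% of all named genes. Adamts1, a protease of versican and aggrecan with antiangiogenic activity, was the bright one. It read 686, 955 and 820.1 in controls and 938, 905 and 854 in silenced cells. Control 1 was the lowest and control 2 the highest of the 6, so the controls enclosed the silenced cultures. The log2 difference was 0.14 (SE 0.12, 95% interval -0.13 to 0.42), 0.02 without control 1 and -0.01 without both arrays of number 1. Adamts5, the neighbouring gene on chromosome 16 with 0 coding genes in between and itself a major aggrecanase gene, read 59.8 to 70.9 and was above the median on none.

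Among the other genes of this family above the median, Adamts12, a protease of cartilage oligomeric matrix protein, read 189.8, 229.7 and 214 in controls and 199, 204 and 225 in silenced cells. Adamts20, known from the mouse belted mutants, whose white belt comes from loss of melanoblasts, read 159.9, 192 and 218 against 186, 202 and 210.3. Their log2 differences were -0.01 (SE 0.10) and 0.08 (SE 0.12), with overlapping groups. Adamts4, an aggrecanase gene, was at 0.03 (SE 0.08), the procollagen protease gene Adamts14 at 0.00 (SE 0.12) and Adamts10, tied to fibrillin microfibrils, at -0.06 (SE 0.14). Adamts9, Adamts13, Adamts17 and Adamts6 were between -0.01 and 0.11. Adamts8 was the only gene of this family without overlap, at -0.16 (SE 0.10) with 83.5, 80.0 and 94.0 against 79.8, 78.9 and 70.9. Its second row gave 0.01 with overlapping groups.

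Of the inhibitors, Timp1, Timp2 and Timp3 were above the median on all arrays and Timp4 on none. Timp1, Timp3 and Timp4 lie inside the spans of the synapsin genes Syn1, Syn3 and Syn2. Timp2 read 1441, 1763 and 1709.5 in controls and 1853, 1763 and 1667 in silenced cells, a log2 difference of 0.11 (SE 0.10, 95% interval -0.12 to 0.34). Control 1 was the low value, and without both arrays of number 1 the difference was -0.02. Timp1 read 224, 160.0 and 215 against 194, 191 and 211, a difference of 0.01 (SE 0.13), with control 2 apart from the other 5. Timp4 read 46.0 to 66.8.

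Timp3, the inhibitor bound to the matrix, had the largest difference of all 77 members, and it depended on both cultures of number 1, mostly on control 1. It read 781, 492 and 479 in controls and 399.7, 431 and 538 in silenced cells. Control 1 stood far above the other 5 values, and silenced culture 3 was above controls 2 and 3. On the log2 scale the levels were 9.15 ± 0.40 and 8.82 ± 0.22 (SD, n = 3 cultures each). The difference was -0.33 (SE 0.19, 95% interval -0.76 to 0.10), or 1.26-fold lower (limma adjusted p = 1.00). Within numbers 1, 2 and 3 it was -0.97, -0.19 and 0.17. Without control 1 the difference was -0.10, and without both arrays of number 1 it was -0.01.

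**Figure D3:**
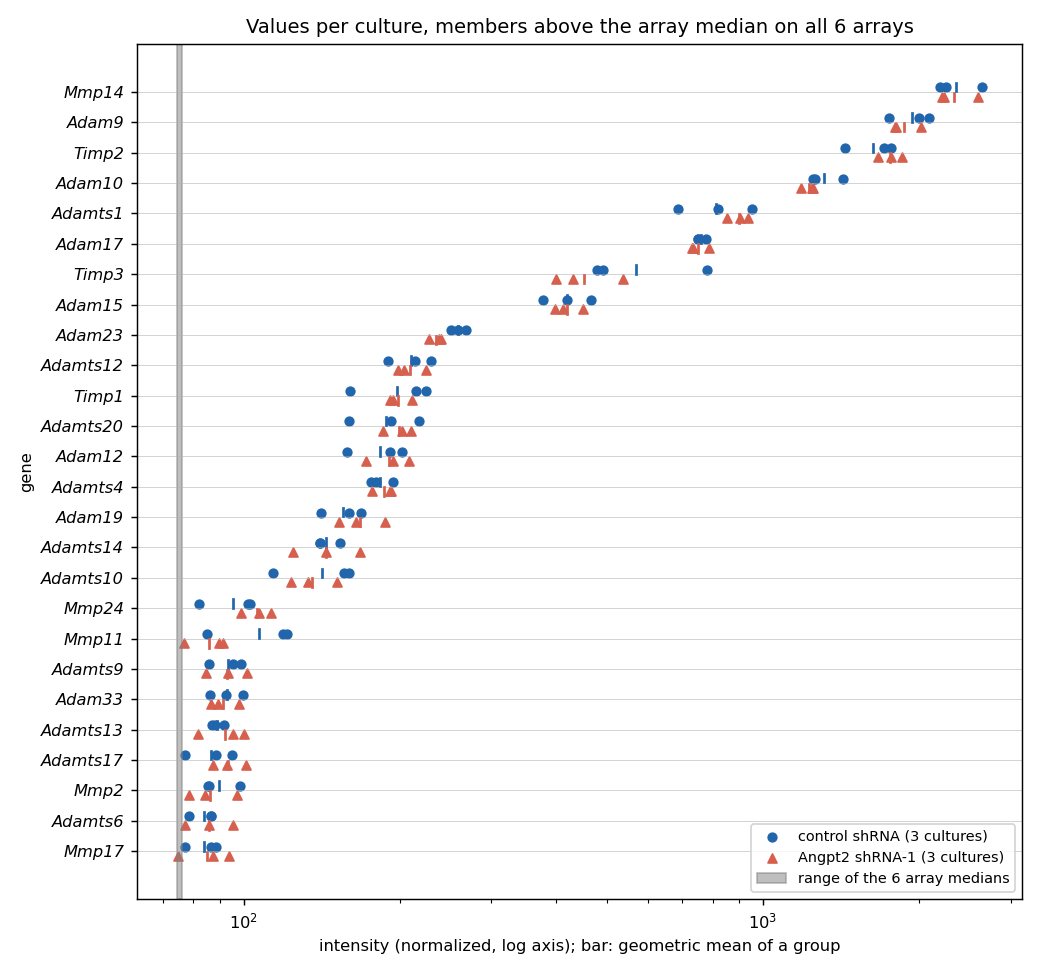
Intensity (log axis) of the 26 genes above the array median on all 6 arrays, with circles for the 3 control shRNA cultures, triangles for the 3 Angpt2 shRNA-1 cultures and bars for the geometric mean of a group; the grey band spans the array medians. The groups overlap for all but Adam10 and Adam23, and Timp3 has 1 control culture at 781 apart from the rest.

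The comparison of the groups over all members asks what the hairpin against Angpt2 did to the expression of this protease system in the tumour cells themselves. Angpt2 itself was lower on every silenced array, with 195, 372 and 326 in controls against 100.2, 122 and 122, a log2 difference of -1.33 (SE 0.21). Its limma unadjusted p was 0.00014, rank 3 of the 22180 genes, but it did not pass over all genes (limma adjusted p = 1.00). It passed with the replicate number as a block (adjusted p = 0.0460). As the main fit did not call even the targeted gene, a count of 0 called members is weak evidence of no change. Of the 77 protease and inhibitor genes limma called 0 at an adjusted p of 0.05, as it called 0 (0%) of all 22180 named genes. At an unadjusted p under 0.05 there were 2 members (2.60%), both lower, beside 3.76% of all genes in either direction and 2.24% lower. With the block these were 4 of 77, beside 4.58% of all genes in that fit, again with 0 at the adjusted threshold.

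The arrays of the groups did not overlap for 6 members (7.79%), beside 9.01% of all genes. All 6, Adam10, Adam23, Adamts8, Adam1a, Adam7 and Adam29, were lower in silenced cells, where 5.48% of all genes were lower and 3.53% higher without overlap. Log2 differences were negative for 45 members (58.4%), beside 54.8% of all named genes, and positive for 32. The median of the members was -0.01, equal to that of all named genes at this precision. Among the 26 members above the median on all arrays 13 were negative and 13 positive, with a median of 0.00. Within numbers 1, 2 and 3 the median of these 26 was 0.04, -0.02 and 0.00.

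How large a change in signal could have gone unseen is given by the intervals. For the 37 members above the median on 0 arrays, and for those near it, they do not bound a change in RNA, since that signal cannot be separated from background. The median member had a 95% interval reaching 0.22 to each side of its estimate, or 1.17-fold. For 75 of the 77 members the whole interval lay within 1.5-fold in both directions, the exceptions being Timp3 and Mmp11, and for 77 within 2-fold. Among the 26 members above the median on all arrays it lay within 1.5-fold for 24 and within 2-fold for 26. The controls varied more than the silenced cultures for 18 of the 26 genes (69.2%), with median SDs of 0.14 and 0.10 on the log2 scale, much as for all named genes above the median (66.9%).

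**Figure D4:**
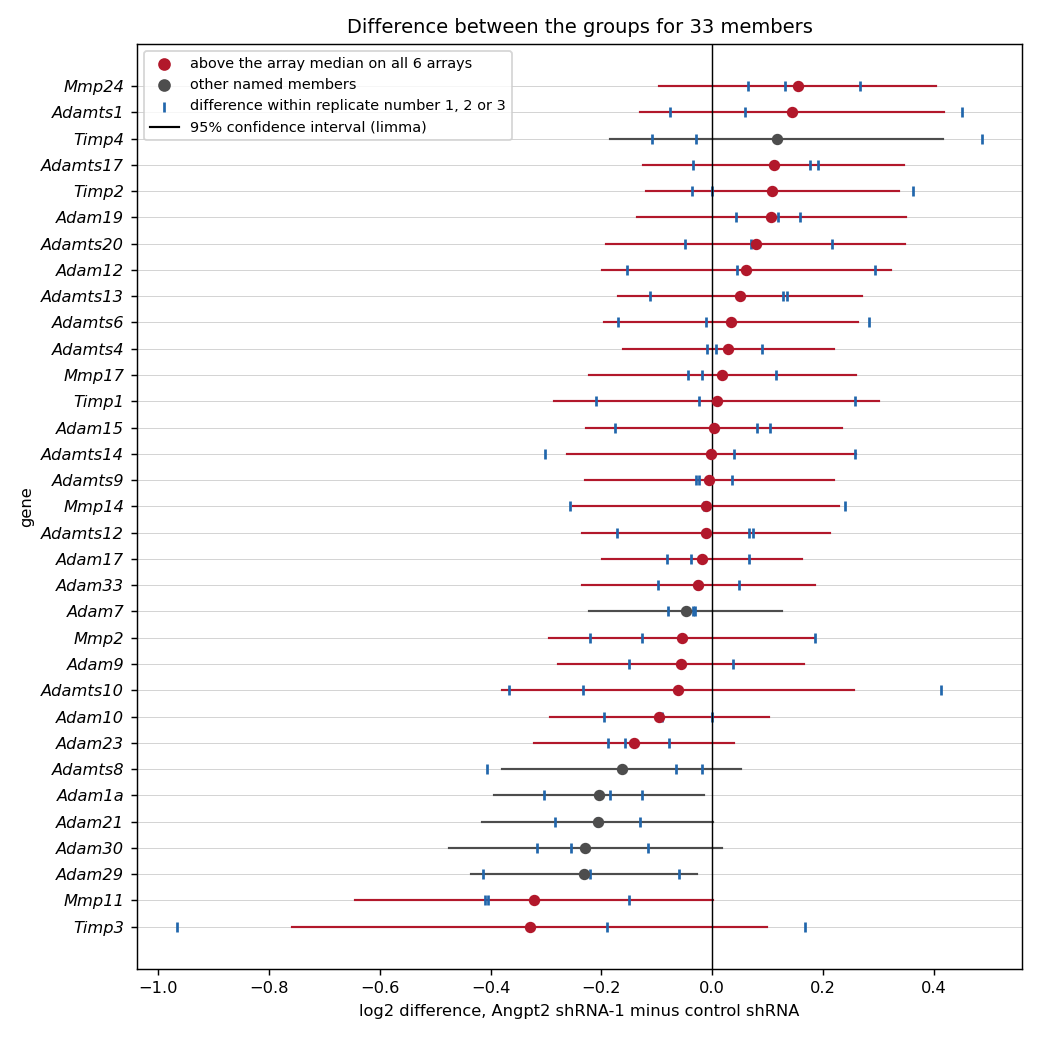
Log2 difference (Angpt2 shRNA-1 minus control shRNA) of 33 named members with limma's 95% confidence interval; ticks give the difference within each replicate number, and red marks members above the array median on all 6 arrays. Intervals of Adam1a and Adam29 alone exclude 0, both dim genes, and the ticks of Timp3 run from -0.97 to 0.17.

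Genes that act on these proteases were likewise not called at the adjusted threshold. Of 14 genes for proprotein convertases and ADAM trafficking 1 had an unadjusted limma p under 0.05. This was Tspan15, a tetraspanin that escorts Adam10 and directs it towards cadherins, which was above every control on every silenced array (log2 difference 0.21, SE 0.08). Of all named genes 3.76% had an unadjusted p under 0.05, and 3.53% were higher without overlap. In the related lists given here and below, Plau, A2m, Tnfrsf1a and Fbn2 were lower without overlap, and Fosb and Vcan higher. In the limma fit across all genes its adjusted p was 1.00. Tspan14, another Adam10 partner, was at 0.01 (SE 0.13). Furin, which cuts the propeptides of Mmp14 and of many ADAMs, was at -0.12 (SE 0.09). Frmd8 and the iRhom genes Rhbdf1 and Rhbdf2, which carry Adam17 to the cell surface, were between 0.02 and 0.12. Among 3 further inhibitor genes, Reck, a membrane-anchored MMP inhibitor, was at -0.10 (SE 0.15) and A2m at -0.16 (SE 0.09).

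No other list of related genes had a member at an unadjusted p under 0.05. This held for 6 measured genes of plasminogen activation, 7 ADAMTS-like genes, 22 genes of proteins shed by ADAMs, 11 matrix substrates of ADAMTS enzymes and 9 AP-1 and ETS factor genes, with list medians between -0.08 and 0.04. The member with the largest difference was Plau, the urokinase gene, at -0.12 (SE 0.08) in the first list and Papln at -0.09 (SE 0.09) in the second. It was Sdc4, a shed heparan sulfate proteoglycan, at 0.19 (SE 0.13) in the third, Thbs1, thrombospondin-1, at 0.30 (SE 0.21) in the fourth and the AP-1 gene Fosb at 0.16 (SE 0.08) in the fifth. Thbs1 read 66.7 in control 1 and at least 107 in the other 5 cultures, and within numbers 1, 2 and 3 its difference was 0.80, -0.01 and 0.10. Of the AP-1 and ETS factor genes 8 of 9 were above the array median on all arrays, from Fosb at 80.0 to 97.3 to Jun at 551 to 1028 and Ets1 at 1174 to 1512. Of the 22 genes of shed proteins, 15 were above the array median on all arrays, 5 on some and 2 (Btc and Nrg1) on none. The brightest were Cdh2 at 1253 to 1544 and App at 1299 to 1633 over the 6 arrays. Notch1 (mean 93.1) and Cdh1 (91.4) stayed near the array median, and Tnf was above it on 2 arrays.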

How the data were processed

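RNA of 6 RET cultures was measured, 100 ng per array per the labels' protocols. The deposited table gives 1 linear intensity for each transcript cluster and array, normalized before deposit; no source used here says how background and arrays were corrected. The scale was read from the values, with array medians of 74.5 to 76.2. The number of arrays limits the precision.

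Of 41345 rows 40425 had a value on all arrays, and 23521 had exactly 1 symbol. The brightest row per gene left 22180 genes. After log2 conversion, limma 3.58.1 under R 4.3.3 fitted every gene (lmFit, then eBayes). Its two-sided p-values were adjusted over all genes by Benjamini-Hochberg, with 0.05 as the threshold. The fit was tested on simulated data. Promoter sequences are RefSeq's; the coordinates printed are those of RefSeq's promoter windows in GRCm38.p6. The build of the array annotation is not given, so no array probe is placed on the genome. The RefSeq gene table served for gene order and for the spans of the Timp and synapsin genes.

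Members, their role groups and all lists were chosen with earlier results of these data known. Members named are those above the array median on all 6 arrays, every Timp, members with an unadjusted p under 0.05 or without overlap, and the 5 with the largest difference in each direction. From a list of related genes the text names members at an unadjusted p under 0.05, or else the member with the largest difference. Further genes were picked with their values in view. Markers of melanocytes, fibroblasts, endothelium, macrophages and keratinocytes were read as a check of the line. Of the 8 fibroblast markers 5 were above the array median on all arrays, with summed intensities of 729 to 778 in controls and 706 to 781 in silenced cells.

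Both groups share the replicate numbers 1, 2 and 3. Deviations from the group means correlated at 0.13, 0.21 and 0.14 across genes for arrays of the same number, over 0.1 for every pair. On these correlations alone, a fit with the replicate number as a block was run beside the main fit. The main fit compared the groups without a block, and the SEs and intervals printed for members come from it. Values from the blocked fit are printed only where they differ in a call or a count.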

Additional observations from a re-analysis of the deposited data

How the results depend on the processing

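Under every alternative run (replicate block, quantile normalization, median centring, a filter on dim genes, the mean of all rows, trend and robust options, array weights, a pseudocount of 16, all complete rows, and arrays left out singly or by replicate number) 0 of the members tested were called. Members at an unadjusted p under 0.05, 2 as reported, were 4 with the replicate block (4.58% of all genes) and with array weights (4.02%), 6 with trend and robust options (3.90%), 1 after quantile normalization (3.67%) and without both arrays of number 2 (3.12%), and 0 among the 24 members kept by the filter on dim genes (2.98%). With 1 array left out they ranged from 0 to 3. They were 0 without Angpt2 shRNA-1 replicate 1 (2.65% of all genes) and 1 without Angpt2 shRNA-1 replicate 3 (3.25%). They were 3 without control shRNA replicate 2 (4.96%) or 3 (5.75%), and 3 with the mean of all rows (3.76%). Members above the array median on all arrays, 26 as reported, were 17 against the median of named genes, and 26 to 27 with 1 array left out. Angpt2 passed with the replicate block (-1.33, adjusted p = 0.0460), without control shRNA replicate 1 (-1.61, adjusted p = 0.0116) and without both arrays of number 1 (-1.51, adjusted p = 0.0404); with 1 array left out its difference ran from -1.61 to -1.14. The block changed no other call given here. Of 33 named members 0 to 8 changed sign in a setting, and none of them passed in any. Leaving out both arrays of a number and testing all complete rows were chosen after seeing the data. Where a value moved, the cause was not tested. Without detection calls, signal near the array median cannot be separated from background.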

Other observations

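Rows annotated with several symbols belong to none of the genes described. A row shared by Mmp24 and BC029722 read 205, 186 and 202 in controls and 192, 182 and 183 in silenced cells, above the array median on all arrays. It cannot be assigned to either gene. Rows shared by Adam34 and Gm5347 read 39.0 to 53.2 over the 6 arrays.

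The 6 members with several rows did not all give the same difference in them. Adam19 was at 0.11 in the brighter row and 0.05 in the dimmer, and Mmp7 at 0.00 and 0.08. Adamts14 was at 0.00 and -0.17, Adam15 at 0.00 and -0.20, Mmp11 at -0.32 and -0.06, and Adamts8 at -0.16 and 0.01.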
